A study of Mus musculus with 8 samples.

Results

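The collagen chain genes are described here in neural stem cells of the mouse embryo grown at 5% or 21% oxygen. Members were all genes whose symbol, found through the RefSeq accession of the array probe, reads Col, a number, a and a number. RefSeq lists 44 such genes, of which 43 matched a probe, out of 37074 genes and transcripts on the array, and Col12a1 was not analysed here. Neural stem cells were taken from OF-1 mouse embryos at stage E13.5 and grown in serum-free medium, at 5% CO2, for at least 10 days and 2 to 3 passages. The hypoxia group (4 cultures) was kept at 5% oxygen and the normoxia group (4 cultures) at 21% oxygen, from the day of isolation and side by side. The 4 experiments used different donors, and same-numbered cultures are treated as a pair from 1 experiment. The labels name no transgene or deletion in either group. Total RNA of each culture was hybridised to 1 single-colour Agilent array.

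Collagens are secreted proteins made of 3 chains wound into a triple helix, and each chain has its own gene. Fibrillar collagens such as types I and III form the cables of connective tissue, type IV forms the sheet of basement membranes, and the other types bind to fibrils, form beaded filaments or span the cell membrane. The helix is held together by hydroxylated prolines, and the enzymes that add the hydroxyl groups use molecular oxygen. In the embryonic brain most fibrillar collagen is known from the meninges and vessel walls, while type IV lies in the basement membranes at the brain surface and around vessels.

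Values are log2 signal relative to the 75th percentile of the same array, so a level of 0 is a probe at that percentile and levels of different genes are not compared. The 75th percentile ran from 1902 to 7344 intensity units, and between 64.4% and 73.9% of spots were well above background. A change is the level at 5% minus that at 21% oxygen. It was tested with limma with the pair as a block (the paired fit), with Benjamini-Hochberg adjustment over all 26874 genes and transcripts tested and a threshold of 0.05. Without the block (the unpaired fit) none of the collagen chain genes passed in limma, 10 of the 33 tested were at an unadjusted p under 0.05 (8.02% of all genes), and 24 genes (0.0893%) passed in all. All 12 neural stem and radial glia markers, among them Sox2, Nes, Pax6 and Fabp7, were well above background on all 8 arrays, and none of them passed in the paired fit (limma, 3 at an unadjusted p under 0.05). Counts at an unadjusted p in the paired fit are to be set beside 5221 of all 26874 genes and transcripts under 0.05.

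Of the 43 collagen chain genes, 33 were tested and 10 were too dim. In the paired fit 8 of the 33 rose at low oxygen: Col1a2, Col3a1, Col1a1, Col6a3, Col6a2, Col20a1, Col16a1 and Col9a3. Only Col22a1 fell, and 24 did not pass. Over all genes 4.22% rose and 1.29% fell, 5.51% in either direction. With the pair as a random block in place of a fixed one, Col1a1, Col20a1, Col6a2 and Col6a3 did not pass, while Col26a1, Col2a1 and Col9a2 did, so that 7 members rose. The median change of the 33 was 0.45, against 0.02 over all genes. It was 0.41, 0.59, 0.67 and 0.33 in pairs 1 to 4, where the medians over all genes were 0.02, 0.16, -0.13 and 0.05. The mean change was above 0 in 27 of the 33 (54% of all genes). The level was higher at 5% oxygen in all 4 pairs in 16 (15.3% of all genes) and lower in all 4 in 3, Col5a3, Col27a1 and Col22a1 (13% of all genes). In 5 of the 33, Col1a2, Col16a1, Col9a3, Col11a2 and Col26a1, every hypoxia array lay above every normoxia array (3.1% of all genes), and in 0 every hypoxia array lay below (1.7% of all genes). Of the 33, only Col15a1 entered the test through 1 group alone, the normoxia arrays. Without pair 1 or pair 3, 3 and 2 members rose in place of 8, while 603 and 329 of all genes rose in place of 1134.

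**Figure D1:**
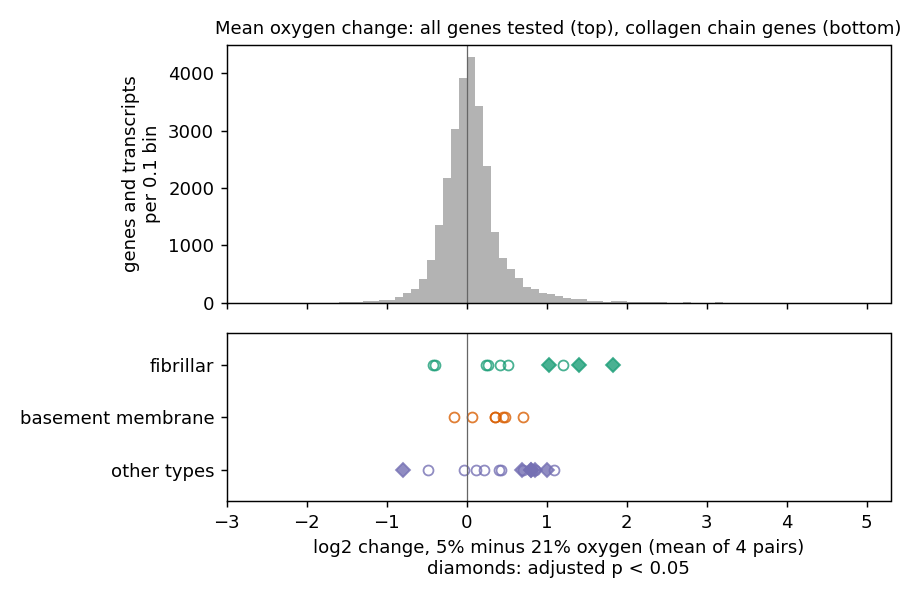
Mean log2 change at 5% against 21% oxygen over the 4 pairs. The grey bars count all 26874 genes and transcripts tested per bin, and the points are the 33 collagen chain genes by class, with diamonds for those past the threshold. The median collagen chain gene lies at 0.45 and the median over all genes at 0.02.

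Among the fibrillar collagens, 3 of 10 tested members rose (4.22% of all genes rose), 7 did not pass and the median change was 0.47. The members that rose encode both chains of type I collagen and the single chain of type III. Col1a2, the alpha 2 chain of type I collagen, lay at -1.33, -0.87, -1.82 and -0.30 on normoxia arrays 1 to 4 and at 0.00, 0.89, 0.34 and 1.77 on hypoxia arrays 1 to 4. The groups did not overlap, and pair 4 was highest in both. Col1a2 rose by 3.55-fold (log2 1.83, SE 0.17, limma adjusted p = 0.00184), the largest change of any member, and passed without any 1 pair (adjusted p from 0.00222 to 0.034).

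Col3a1 encodes the chain of type III collagen, which accompanies type I in soft tissue and is a known ligand of the adhesion receptor encoded by Adgrg1 in the developing cortex. It lay at -3.38, -2.30, -2.94 and -1.22 on the normoxia arrays and at -2.53, -0.72, -1.52 and 0.53 on the hypoxia arrays. The groups overlapped because the cultures stood far apart, with pair 1 lowest and pair 4 highest in both, but each hypoxia culture lay above its own partner. Col3a1 rose by 2.64-fold (log2 1.40, SE 0.17, limma adjusted p = 0.00473), and the call was lost without pair 3 (adjusted p = 0.0526). Col1a1, the alpha 1 chain of type I collagen, lay at -0.86, -0.58, 0.17 and 1.86 at 21% oxygen and at -0.03, 1.33, 1.25 and 2.18 at 5% oxygen. The change was smallest in pair 4, at 0.32, and largest in pair 2, at 1.90. Col1a1 rose by 2.05-fold (log2 1.03, SE 0.24, limma adjusted p = 0.0471). That call was lost without pair 1 (adjusted p = 0.102), 2 (0.0988) or 3 (0.196), and also under quantile normalization.

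The stretches of 250 bases before the RefSeq start of the gene (build GRCm38.p6) are printed for 4 of the 8 risen members, first the 2 with the largest increases. The letters searched on both strands were ACGTG and GCGTG, the cores of the element that hypoxia-inducible factors bind, CCAAT, and TATAAA. The first of these can overlap itself on the other strand, and capitals mark each match on either strand. Col1a2 (chr6:4505368-4505617, + strand) and Col3a1 (chr1:45311288-45311537, + strand) read as follows.
Col1a2: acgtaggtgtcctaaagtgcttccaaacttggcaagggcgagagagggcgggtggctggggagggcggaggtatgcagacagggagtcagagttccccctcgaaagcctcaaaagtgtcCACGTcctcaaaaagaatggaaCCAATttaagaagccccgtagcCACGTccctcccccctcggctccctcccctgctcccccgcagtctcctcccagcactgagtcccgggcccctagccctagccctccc
Col3a1: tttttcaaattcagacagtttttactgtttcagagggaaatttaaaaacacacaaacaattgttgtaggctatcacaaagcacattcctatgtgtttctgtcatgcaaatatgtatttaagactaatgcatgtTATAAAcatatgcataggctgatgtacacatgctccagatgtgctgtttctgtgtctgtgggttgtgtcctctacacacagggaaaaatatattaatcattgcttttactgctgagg
The Col1a2 stretch holds ACGTG as its reverse letters CACGT at 131 to 127 and at 87 to 83 bases before the start, and CCAAT at 109 to 105 bases. The Col3a1 stretch holds neither core, and TATAAA at 117 to 112 bases. It has 35.2% G and C, against 62% in Col1a2 and a median of 52.4% over the 32851 stretches of that length in the table.

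Over all stretches, 16.6% hold ACGTG, 28.2% hold GCGTG and 38.6% hold at least 1 of the 2. The table has 38 stretches for 35 collagen chain genes, and 28.9% of these hold at least 1 core. Among the 6 risen members with a stretch 3 hold a core, Col1a2, Col6a2 and Col16a1. CCAAT is in 33.8% of all stretches and in 34.2% of the collagen ones, and TATAAA in 12.4% and 13.2%. A match describes letters, not a bound site.

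The remaining fibrillar genes did not pass. Col2a1, the chain of type II collagen of cartilage, had changes of 1.22, 1.49, 2.12 and -0.04 in pairs 1 to 4 (mean 1.20, SE 0.31, limma adjusted p = 0.0645). Pairs 1 to 3 moved by more than 1 log2 unit and pair 4 did not, and without pair 4 the gene passed (3.06-fold, adjusted p = 0.00385). Col11a1 (0.52) and Col11a2 (0.42), whose chains sit inside cartilage fibrils, were at adjusted p of 0.141 and 0.146. Col5a1 (0.27) and Col5a2 (0.24) encode the main chains of type V collagen, which starts fibrils, and both had a negative value in pair 4. Col5a3, the third type V chain, was at -0.40 and was lower in all 4 pairs, by -0.34, -0.50, -0.18 and -0.57 (limma adjusted p = 0.158). Col27a1, another fibrillar chain of cartilage, was at -0.42 and also lower in all 4 pairs (adjusted p = 0.147). Col24a1 was not well above background on any array.

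**Figure D2:**
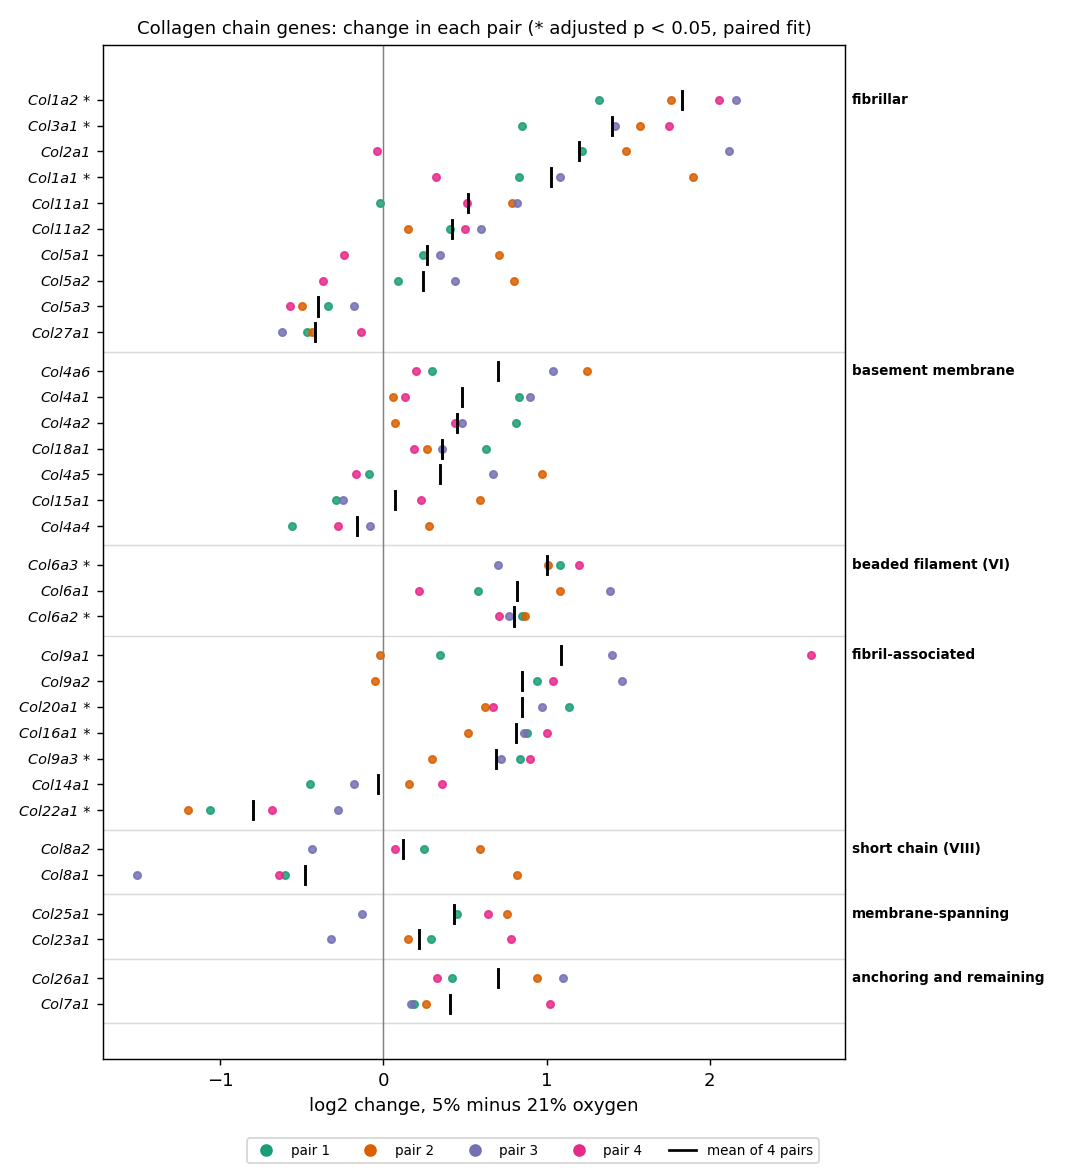
Log2 change at 5% against 21% oxygen for the 33 tested collagen chain genes, grouped by class. Coloured points are the 4 pairs, black bars their mean, and stars mark adjusted p under 0.05 in the paired fit. Col1a2 is at 1.32 or more in every pair, type IV chains lie between -0.56 and 1.25, and Col22a1 is below 0 in every pair.

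None of the 7 tested basement membrane genes passed in the paired fit (limma, with 4 at an unadjusted p under 0.05, as were 5221 of all 26874), and their median change was 0.36. Col4a1 and Col4a2 encode the chains of the ubiquitous type IV network and lie head to head, with RefSeq starts 21 bases apart. Col4a1 lay at -0.03, 0.61, 0.27 and 0.70 on the normoxia arrays and at 0.80, 0.67, 1.17 and 0.83 on the hypoxia arrays. Its changes were 0.83, 0.06, 0.90 and 0.13 (mean 0.48, SE 0.19, adjusted p = 0.204), and those of Col4a2 were 0.81, 0.07, 0.48 and 0.44 (mean 0.45, SE 0.16, adjusted p = 0.16). Col4a2 lay at -1.29, -0.93, -1.12 and -0.56 at 21% oxygen and at -0.48, -0.85, -0.64 and -0.12 at 5% oxygen. Both were higher in all 4 pairs and by least in pair 2. Col4a6 and Col4a5, a second head-to-head couple with starts 1343 bases apart, had mean changes of 0.70 (SE 0.21, adjusted p = 0.101) and 0.35 (adjusted p = 0.434), both largest in pair 2. Col4a6 lay at -0.01, 0.57, 0.32 and 1.06 at 21% oxygen and at 0.29, 1.82, 1.35 and 1.25 at 5% oxygen, and the groups overlapped. Col18a1, whose protein releases endostatin, lay between 4.40 and 4.81 at 21% oxygen and between 4.59 and 5.07 at 5% oxygen. It was higher in all 4 pairs by 0.19 to 0.63 (mean 0.36, adjusted p = 0.204). Col4a4 (-0.16) and Col15a1 (0.07) had adjusted p of 0.672 and 0.887. Col4a3 was not well above background on any array. The mean of Col15a1 was below 0 under quantile normalization and, at -0.10, without pair 2.

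Type VI collagen forms beaded filaments around cells, and 2 of its 3 tested genes rose in the paired fit (4.22% of all genes rose). Col6a3 lay at -5.18, -2.69, -3.27 and -1.05 on the normoxia arrays and at -4.11, -1.68, -2.57 and 0.16 on the hypoxia arrays. The cultures spanned a 17.6-fold range at 21% oxygen, from pair 1 to pair 4, while the change within a pair ran only from 0.70 to 1.20. Col6a3 rose by 2.00-fold (log2 1.00, SE 0.14, limma adjusted p = 0.00811) and passed without any 1 pair (adjusted p from 0.0233 to 0.0436), but not with the pair as a random block (adjusted p = 0.293).

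Col6a2 lay at -3.37, -3.51, -3.80 and -1.41 at 21% oxygen and at -2.51, -2.65, -3.03 and -0.70 at 5% oxygen. Pair 4 stood apart in both groups, but the 4 changes lay within 0.71 to 0.87, the narrowest range among the members that passed. Col6a2 rose by 1.74-fold (log2 0.80, SE 0.13, limma adjusted p = 0.0124), a call lost without pair 1 (adjusted p = 0.0741) or 3 (0.061). Col6a1, its neighbour on chromosome 10, had changes of 0.58, 1.08, 1.39 and 0.22 (mean 0.82, SE 0.20, adjusted p = 0.0608). Without pair 4 it passed (2.03-fold, adjusted p = 0.0251). Col6a4, Col6a5 and Col6a6 were not well above background on any array. The stretch before the Col6a3 start (chr1:90843972-90844221, - strand), shown because this gene kept its call without any 1 pair, holds none of the letters searched.
Col6a3: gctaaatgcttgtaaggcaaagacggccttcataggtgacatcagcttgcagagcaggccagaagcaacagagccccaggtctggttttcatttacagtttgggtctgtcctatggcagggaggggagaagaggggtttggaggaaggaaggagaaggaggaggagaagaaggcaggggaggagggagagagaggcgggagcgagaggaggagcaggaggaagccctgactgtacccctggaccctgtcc

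The fibril-associated collagens, short helices that decorate the surface of fibrils, held the single member that fell. In the paired fit 3 of 7 tested genes rose and 1 fell (4.22% and 1.29% of all genes). Col16a1 lay at 2.68, 3.42, 2.87 and 2.75 on the normoxia arrays and at 3.56, 3.94, 3.73 and 3.75 on the hypoxia arrays. The groups did not overlap, and pair 2 was highest in both. Col16a1 rose by 1.76-fold (log2 0.81, SE 0.14, limma adjusted p = 0.0167), a call lost without pair 1 (adjusted p = 0.0862), 3 (0.09) or 4 (0.0546). Its other probes had mean changes of 0.71 and 0.95. The stretch before its start (chr4:130047590-130047839, + strand), shown because its groups did not overlap and all 3 of its kept probes had positive mean changes, holds GCGTG as CACGC at 219 to 215 bases and CCAAT at 113 to 109 bases.
Col16a1: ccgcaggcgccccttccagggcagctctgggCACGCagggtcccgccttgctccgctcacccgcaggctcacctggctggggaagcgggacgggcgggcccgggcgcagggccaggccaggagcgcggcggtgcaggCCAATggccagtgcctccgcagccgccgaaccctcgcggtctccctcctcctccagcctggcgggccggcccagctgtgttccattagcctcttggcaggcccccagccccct

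Col20a1, another fibril-associated chain, lay at -3.56, -1.73, -2.48 and -3.31 at 21% oxygen and at -2.42, -1.12, -1.51 and -2.64 at 5% oxygen. Here pair 2, not pair 4, was the highest culture in both groups. Col20a1 rose by 1.80-fold (log2 0.85, SE 0.15, limma adjusted p = 0.0167), a call lost without pair 1 (adjusted p = 0.0947) or 3 (0.0962), and its other probe was at 0.68. Col9a3, a chain of the type IX collagen of cartilage and vitreous, lay at -1.87, -1.81, -2.04 and -2.47 at 21% oxygen and at -1.03, -1.51, -1.32 and -1.57 at 5% oxygen. The groups did not overlap, and the change was smallest in pair 2. Col9a3 rose by 1.62-fold (log2 0.69, SE 0.15, limma adjusted p = 0.0395), a call lost without pair 1 (adjusted p = 0.179), 3 (0.146) or 4 (0.118) and under quantile or median scaling.

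Its partner chains Col9a2 and Col9a1 did not pass, each with a value near 0 in pair 2 (-0.05 and -0.02). Col9a2 had a mean change of 0.85 (adjusted p = 0.0827), and without pair 2 it passed (2.21-fold, adjusted p = 0.0243). Col9a1 ranged from -0.02 to 2.62 (mean 1.09, adjusted p = 0.166), and its other kept probe had a mean of -0.16, so its probes disagreed. Col22a1, known from tissue junctions such as those of muscle and tendon, lay at -1.74, -1.61, -1.98 and -0.96 at 21% oxygen and at -2.80, -2.81, -2.25 and -1.64 at 5% oxygen. The groups overlapped, but each hypoxia culture lay below its partner. Col22a1 fell by 0.80 on the log2 scale (SE 0.18, limma adjusted p = 0.0426). It did not pass in any fit on 3 pairs (adjusted p = 0.175, 0.128, 0.0609 and 0.0667) and under median scaling. Col14a1 (-0.03) was at an adjusted p of 0.956, and its mean was above 0 with normexp background correction, without pair 1 (0.11) and without pair 3 (0.02). Col19a1 was well above background on 3 of the 8 arrays and was not tested.

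**Figure D3:**
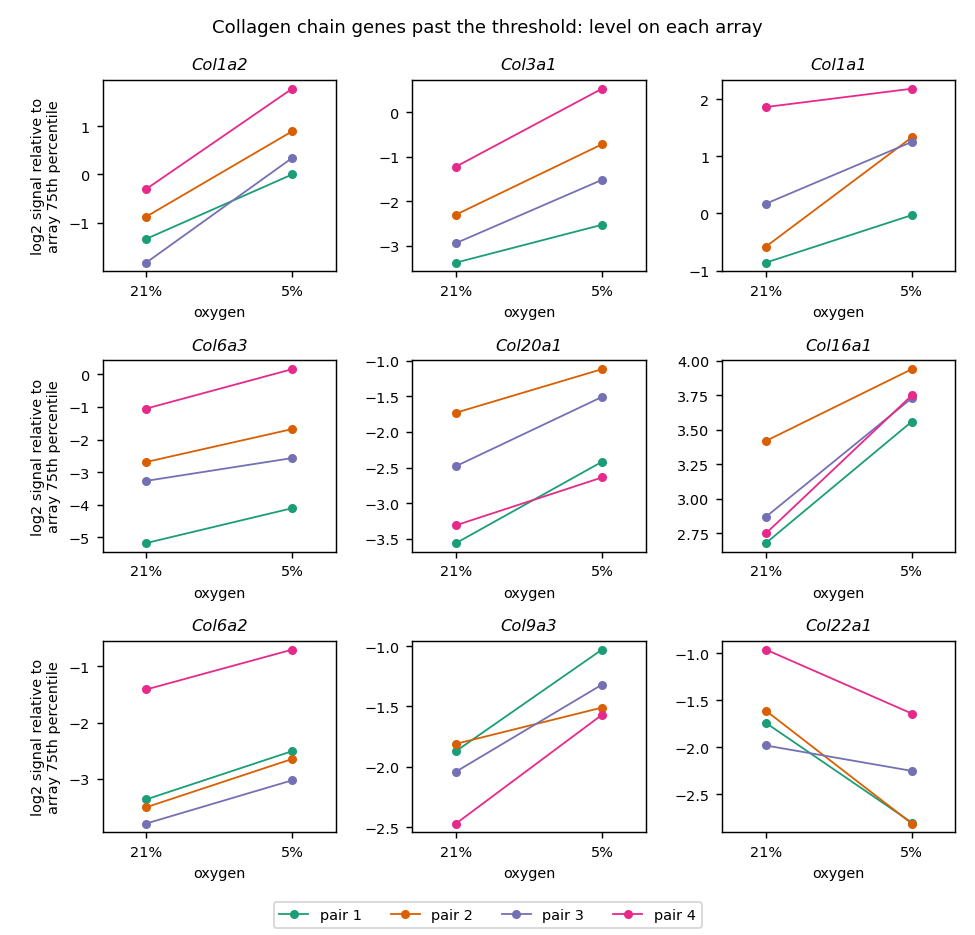
Log2 signal relative to the array's 75th percentile for the 9 collagen chain genes that passed the paired fit, with 1 line for each pair from 21% to 5% oxygen. All lines rise in 8 panels and fall in the Col22a1 panel, and vertical scales differ between panels. In Col6a3 the lines run nearly in parallel over a 17.6-fold range at 21% oxygen.

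None of the 6 tested genes of the remaining classes passed in the paired fit (limma, 2 at an unadjusted p under 0.05). Col26a1, an emilin-related chain, lay at 1.09, 0.48, 1.33 and 1.28 at 21% oxygen and at 1.51, 1.42, 2.43 and 1.62 at 5% oxygen. The groups did not overlap, and its change of 0.70 (SE 0.17) came close to the threshold (adjusted p = 0.0575). Col7a1, which forms the anchoring fibrils of skin, was higher in all 4 pairs (mean 0.41, SE 0.18, adjusted p = 0.259), by 1.02 in pair 4 and by 0.17 to 0.26 in the others. The membrane-spanning collagens Col25a1 (0.43, SE 0.18, adjusted p = 0.228) and Col23a1 (0.22, SE 0.19, adjusted p = 0.577) each had a negative value in pair 3. Of the type VIII chains, found in vessel walls and the cornea, Col8a1 ranged from -1.51 to 0.82 (mean -0.48, SE 0.32, adjusted p = 0.468) and Col8a2 from -0.44 to 0.59 (mean 0.12, SE 0.18, adjusted p = 0.789, and a mean of -0.04 without pair 2). Col8a1 also differed by 8.69-fold between the normoxia cultures. Col10a1, Col13a1, Col17a1 and Col28a1 were not well above background on any array.

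Chains of 1 trimer are made by separate genes, and 12 couples of such partners were compared by the difference of their changes within each pair. The exact sign-flip permutation test over 4 pairs (two-sided) cannot give a p below 0.125, so no couple could pass. Col1a2 changed by 0.79 ± 0.81 (SD, n = 4 pairs) more than Col1a1, with differences of 0.49, -0.14, 1.08 and 1.74 (exact p = 0.25, adjusted 0.75). The gap was widest in pair 4, where Col1a1 moved least. Col4a2 and Col4a1 differed by -0.03 ± 0.30 and Col6a1 and Col6a2 by 0.02 ± 0.50 (exact p = 0.75 and 1). Col4a6 changed by 0.35 ± 0.05 more than Col4a5, by 0.28 to 0.39 in each pair, and Col5a3 by -0.66 ± 0.38 against Col5a1, below it in all 4 pairs. Both of these couples reached the smallest p that the design allows, 0.125 (adjusted 0.75). The other kept probe of Col4a6 had a mean change of 0.28, below that of Col4a5. Neighbours on a chromosome did not always share a call: Col3a1 rose, and its neighbour Col5a2 was at 0.24 (adjusted p = 0.569).

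The cultures differed from each other as well as by oxygen. The range over the 4 normoxia arrays had a median of 1.03 over the tested members, against 0.73 over all genes. Pair 4 held the highest array of both groups in 12 of the 33 members, among them both type I chains, Col3a1 and all 3 type VI chains, against 8.92% of all genes. Pair 1 held the lowest of both groups in 11 members, against 7.95% of all genes. The arrays of pair 1 also had the lowest 75th percentiles, 1902 at 5% and 2966 at 21% oxygen. The part of array brightness in this order was not tested. Markers of other cell types were measured beside the collagen chain genes, and in whole cultures fewer cells of a type and less RNA per cell cannot be told apart. Pair 4 was highest in both groups in 6 of 13 tested markers of fibroblasts of the meninges and vessel walls, 5 of 8 microglia markers, 3 of 5 mural markers and 1 of 12 neural stem markers. Pair 1 was lowest in both groups in 4, 4, 2 and 2 of them.

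The microglia gene Tyrobp, an immune adaptor, lay at -7.43, -3.12, -2.59 and 0.65 at 21% oxygen and at -6.60, -3.62, -3.68 and 0.95 at 5% oxygen. The fibroblast gene Dcn lay at -5.67, -4.96, -5.40 and -4.07 at 21% oxygen and at -5.23, -3.53, -4.03 and -2.33 at 5% oxygen. Both were highest in pair 4 and lowest in pair 1, and Tyrobp was well above background on 3 of 4 arrays in each group. Other markers of both lists had other orders. Ptgds was lowest in pair 4 in both groups, and Prrx1 highest in pair 2. The microglia gene Itgam was highest in pair 1 in both groups, at 2.03 at 21% and 2.17 at 5% oxygen. None of the 8 microglia markers passed in the paired fit (limma, 0 at an unadjusted p under 0.05), and the sum of their signals was 2.99 to 8.26 at 5% and 2.74 to 7.93 at 21% oxygen. This sum was highest in pair 4 and next highest in pair 1, at 6.05 at 5% and 6.34 at 21% oxygen. In pairs 1 to 3 it was carried mainly by Itgam and Csf1r.

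Of 14 fibroblast markers 13 were tested, and in the paired fit 3 rose, 2 fell and 8 did not pass, with Foxd1 too dim. The shares over all genes, for this and the next 2 lists, were 4.22% risen and 1.29% fallen. Cyp1b1 rose by 2.25-fold, Foxc2 by 2.92-fold and Dcn by 2.37-fold (limma adjusted p = 0.00552, 0.0178 and 0.0161). The transcription factor gene Foxc1 fell by 0.96 and the proteoglycan gene Ogn by 2.15 on the log2 scale (adjusted p = 0.0178 and 0.0159). Without pair 3 the calls of Dcn (adjusted p = 0.117), Foxc2 (0.0544), Foxc1 (0.099) and Ogn (0.0579) were lost, without pair 2 those of Dcn (0.0738), Foxc2 (0.0642) and Ogn (0.0585), and without pair 1 that of Foxc1 (0.066). Lum (1.22) was well above background on 3 of 4 arrays in each group, and Twist1 was at -0.51. The summed signal of the list, relative to the 75th percentile, was 18.8 to 28 at 5% and 9.76 to 23.1 at 21% oxygen. This sum was highest in pair 2 in both groups, and lowest in pair 1 at 5% and in pair 4 at 21% oxygen. It was carried mainly by Ptgds and, on most arrays, Pdgfra, which other neural cells also express. On normoxia arrays 3 and 4 Pdgfra, at -0.37 and 0.13, added less than Prrx1, at 1.05 and 0.53. Pdgfra changed by 0.37, -0.12, 3.04 and 3.45 in pairs 1 to 4 (mean 1.68, limma adjusted p = 0.149). The sums add signals of different probes. Among the mural markers Pdgfrb rose by 2.91-fold (adjusted p = 0.00183) and Acta2 fell by 1.28 (0.0132, and 0.0571 without pair 3). Cspg4 rose by 1.86-fold (adjusted p = 0.0448, lost without pair 1, 3 or 4). The mural sum was 8.14 to 14.4 at 5% and 8.7 to 25.3 at 21% oxygen, with Kcnj8, Abcc9 and Myh11 too dim to be tested. Of 9 endothelial markers 7 were tested, of which Flt1 rose (1.25) and Cldn5 (-2.36), Tek (-1.38) and Emcn (-1.01) fell, with sums of 3.11 to 4.48 at 5% and 1.67 to 4.83 at 21% oxygen, and Cdh5 and Tie1 were too dim. Tek and Emcn were each well above background on 1 hypoxia array and entered the test only through the normoxia group, where they were higher. Without pair 3 none of these 4 endothelial calls held (adjusted p = 0.103, 0.0519, 0.0507 and 0.143), Flt1 (0.0785) and Emcn (0.103) were lost without pair 2, and Emcn without pair 1 (0.0764).

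All 5 astrocyte markers had a mean above 0 (median change 0.48), as did 54% of all genes. Of these markers only Slc1a2, a glutamate transporter gene, rose, by 1.89-fold (limma adjusted p = 0.0268). That call was lost without pair 1 (0.0553), 2 (0.07) or 3 (0.0824). For this list and the oligodendrocyte list, the share risen over all genes was 4.22%. The astrocyte sums were 27.4 to 39.7 at 5% and 19.2 to 33.1 at 21% oxygen. They were carried mainly by Aldh1l1, which did not pass (limma adjusted p = 0.0902). Of 6 oligodendrocyte lineage markers Mbp, a myelin protein gene, rose by 2.94-fold (adjusted p = 0.0116, and 0.103 without pair 3), and Sox10 was at 1.77 (adjusted p = 0.103). None of 6 neuronal markers passed (limma, 1 at an unadjusted p under 0.05), with sums of 14.4 to 17.7 and 15.9 to 18.4, carried mainly by Map2. The part of such cells in the collagen changes was not tested.

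**Figure D4:**
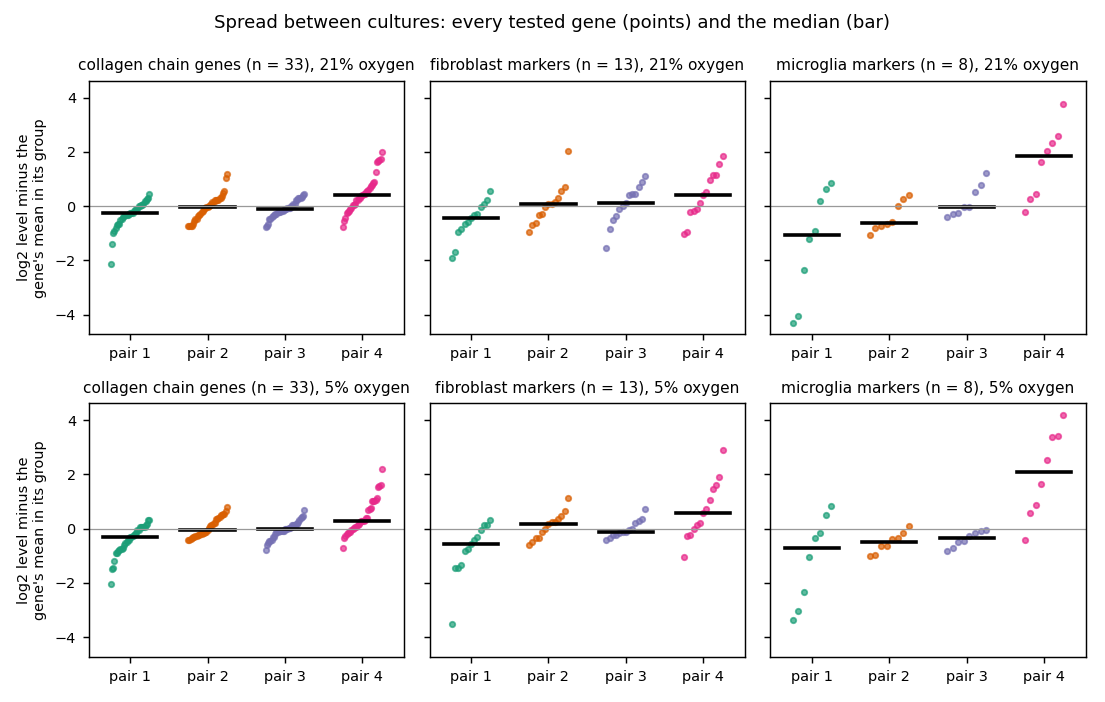
Log2 level minus the gene's mean in its group, by pair, at 21% (top) and 5% oxygen (bottom), for all 33 tested collagen chain genes, 13 fibroblast markers and 8 microglia markers. Points are genes, sorted within a pair, and black bars the median. The median is lowest in pair 1 and highest in pair 4 in all 6 panels, and the spread between pairs is widest for the microglia markers.

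Genes for the making of collagen were described from lists chosen with earlier results of these data known. Of 21 genes for the folding and modification of collagen chains 7 rose and 14 did not pass in the paired fit (4.22% of all genes rose), with a median change of 0.28. P4ha2 and P4ha1 encode catalytic subunits of the prolyl 4-hydroxylase that stabilises the helix. P4ha2 lay at -0.74, 0.41, -0.29 and -1.79 at 21% oxygen and at 2.56, 2.96, 2.47 and 1.27 at 5% oxygen, and P4ha1 rose by 2.84-fold (limma adjusted p = 0.00241). Neither overlapped between groups, and P4ha2 rose by 7.54-fold (limma adjusted p = 0.000662). Fkbp10, a chaperone of the endoplasmic reticulum, rose by 2.02-fold (adjusted p = 0.00976) and Plod2, a lysyl hydroxylase, by 2.25-fold (adjusted p = 0.012). The calls of Fkbp10 (adjusted p = 0.0559) and Plod2 (0.0962) were lost without pair 3. Colgalt2, P3h3 and P3h4 rose too, and without pair 3 these calls were lost as well (adjusted p = 0.0808, 0.111 and 0.17). P3h3 (0.102) and P3h4 (0.0764) were also lost without pair 1, and P3h4 without pair 2 (0.129) or 4 (0.107). The subunit gene P4hb (0.28, adjusted p = 0.305), the collagen chaperone gene Serpinh1 (0.17, 0.649) and P4ha3 (-0.08, 0.862) did not pass.

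Of 12 tested genes for trimming and cross-linking, 2 rose and 10 did not pass in the paired fit (4.22% of all genes rose). Loxl2, a lysyl oxidase, rose by 6.86-fold (limma adjusted p = 0.0101), with 4.71 in pair 1 and 1.80 to 2.41 in the others, and was at 4.39-fold without pair 1. Loxl2 did not pass when pair 3 was left out (adjusted p = 0.0808). Loxl4 rose by 2.12-fold (adjusted p = 0.00808, and 0.0619 without pair 3). It was well above background on 3 hypoxia and 2 normoxia arrays, so it entered the test only through the group where it was higher, which bears on its place in the count. Lox, which entered in the same way, ranged from 0.26 to 2.16 (mean 0.93, adjusted p = 0.117). The protease gene Adamts3 was lower in all 4 pairs (-0.64, adjusted p = 0.0534).

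Of 9 tested collagen receptor genes 2 rose in the paired fit, where 4.22% of all genes rose and 1.29% fell. Itga11, an integrin subunit for fibrillar collagen, rose by 2.10-fold (limma adjusted p = 0.026), a call lost without pair 1 (adjusted p = 0.101), 2 (0.0864) or 3 (0.0524). Mrc2, which takes up collagen, rose by 1.51-fold with an adjusted p that rounds to 0.05, and did not pass in any fit on 3 pairs. Adgrg1 was at -0.04 (adjusted p = 0.912), Itgb1 at -0.05 (0.886) and Ddr1 at -0.32 (0.282). None of 7 tested genes for collagen breakdown passed in the paired fit (limma, 3 at an unadjusted p under 0.05), with Timp2 at -0.73 (adjusted p = 0.0567) and Timp1 at 0.63 (0.0575). Among 18 genes that bind fibrils or build basement membranes Thbs1 fell by 1.41 (adjusted p = 0.0439) and none rose. The Thbs1 value was -0.09 in pair 2, and Thbs1 did not pass without pair 1 (adjusted p = 0.138), 3 (0.194) or 4 (0.0742). The fibronectin gene Fn1 was at 1.15 (adjusted p = 0.0521).

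**Figure D5:**
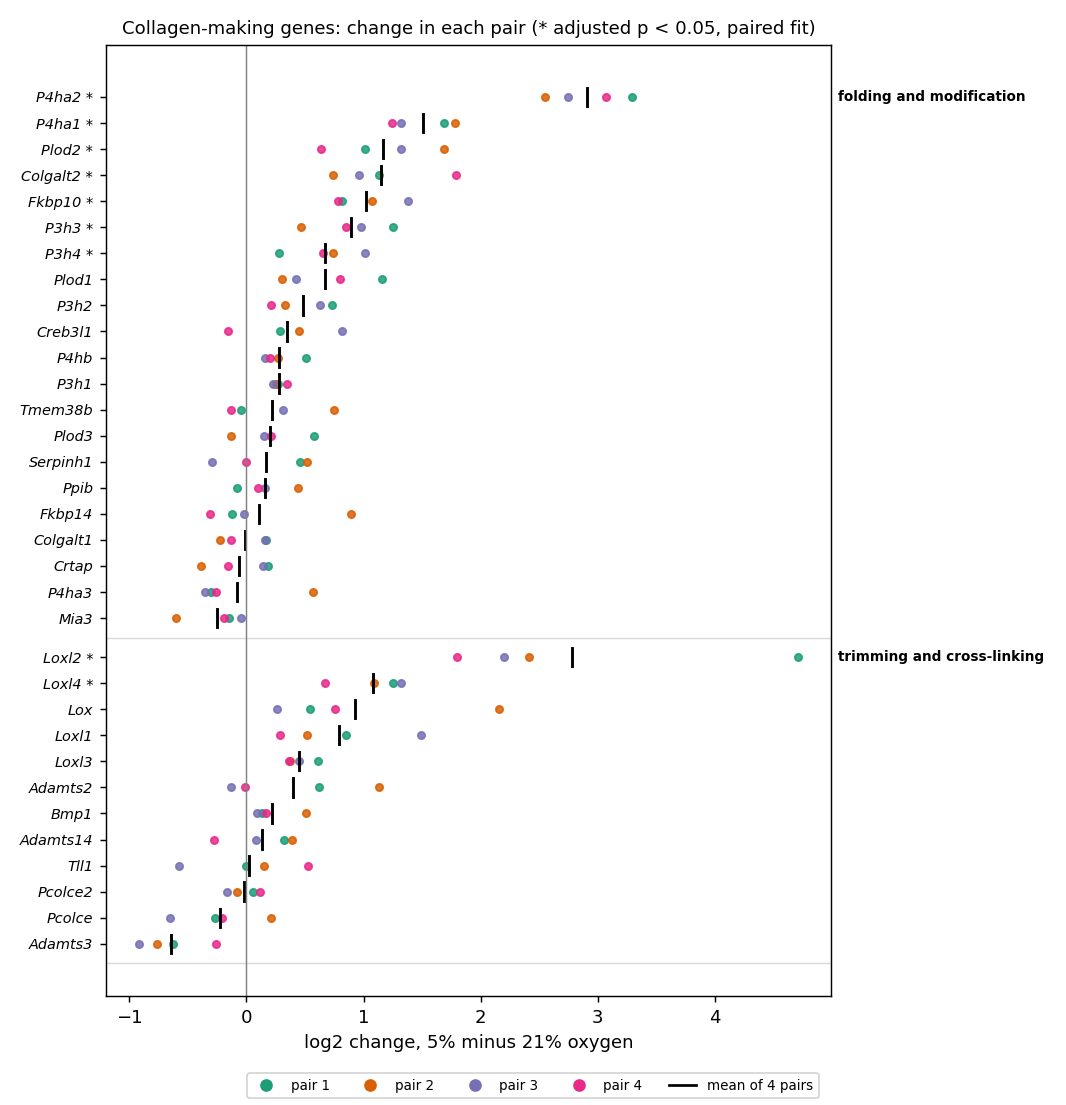
Log2 change at 5% against 21% oxygen for 21 genes of collagen folding and modification (top) and 12 of trimming and cross-linking (bottom). Coloured points are the 4 pairs, black bars their mean, and stars mark adjusted p under 0.05 in the paired fit. P4ha2 is at 2.55 or more in every pair.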

How the data were processed

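Per the file headers, the deposited intensity values are the processed signals of Agilent Feature Extraction 10.7.3.1 (version per the submitters' processing notes), subtracted for background and detrended, and arrays were not yet scaled to each other. The authors' deposited value table holds log2 values. Compared with each array's scanner file, its values are the log2 signal after subtraction of 2 terms, the array's 75th percentile and the probe's median over the arrays, within 0.01 for 99.78% to 99.81% of probes, and its column medians ran from -0.12 to 0.25. It served as an alternative. All arrays were single-colour, and their number limits the precision.

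Here, processed signals were put on the log2 scale and set relative to the 75th percentile of the unflagged, non-control spots of the same array. Outlier spots were left out and spots of 1 probe averaged. A probe was kept when well above background on at least 3 of 4 arrays of a group (37669 of 55681 probes). Probe accessions were matched without versions to RefSeq genes of GRCm38.p6, which named 27235 probes, and the probe with the highest mean stood for its gene. The array was designed on another build, and promoter sequences and coordinates are RefSeq's for GRCm38.p6. Linear models were fitted with limma 3.58.1 under R 4.3.3, moderated with eBayes, and were tested on simulated data.

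The replicate number was the block, since the design text gives different donors per experiment and the protocols parallel culture. Deviations from the group means of same-numbered arrays correlated at 0.76, 0.51, 0.38 and 0.66 for numbers 1 to 4, and the highest correlation with another number was -0.06, 0.31, 0.31 and -0.18, so number 3 stands little apart. The members, the lists and the pairing were chosen with earlier results of these data known. All members are accounted for, with full statistics for those past the threshold or, in a class without any, the 2 with the smallest p, and of each pathway list up to 4 members past the threshold or else the 2 with the smallest p are named. Other genes named were chosen after their values were seen. The alternatives covered block, scaling, background, filter, gene summary, flags, moderation and left-out pairs.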

Additional observations from a re-analysis of the deposited data

Results flagged for a closer look

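In 4 of 66 groups of 4 arrays, 1 array stood far from the other 3 by Dixon's criterion. About 1 in 20 groups does so by chance. Col6a1 was at 1.87 on normoxia array 4, with the next at -0.12. Col27a1 was at -2.99 on hypoxia array 4, with the next at -4.33. Col15a1 was at -7.43 on normoxia array 2, with the next at -6.48. Col18a1 was at 4.81 on normoxia array 2, with the next at 4.43.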

How the results depend on the processing

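With no replicate block, 0 members rose and 0 fell, and 0 pathway genes did either (limma, 10 members and 14 pathway genes at an unadjusted p under 0.05). Over the left-out pairs, 2 to 8 members rose and 0 fell, and 2 to 11 pathway genes rose and 0 to 1 fell. Of all genes 329 to 1063 rose in these fits, against 1134 with all pairs. With no filter on dim probes 3 members (Col1a2, Col3a1 and Col6a3) and 3 pathway genes rose and 0 fell. Of the 37074 genes and transcripts then tested, 379 rose. With normexp 13 members rose, and with trend and robust moderation 13. All genes that rose then numbered 1503 and 1643, against 1134 in the main fit. Under median scaling 0 members fell. The pathway genes that fell numbered 2 under quantile normalization, normexp, the mean of probes and trend moderation, and 3 under median scaling and with all 8 arrays well above background. The causes were not tested, except that fewer pairs leave fewer residual degrees of freedom. The median change of the members lay between 0.40 and 0.52. None of the 9 members that passed turned its direction in any of 15 alternatives, but most of these could not turn it. Each of the 9 had the same sign in all 4 pairs, so leaving out a pair could not reverse its mean. Alternatives of block, moderation and filter left these mean changes as they were. Col1a2 kept its call in 14 of 15, Col3a1 and Col6a3 in 13, Col16a1, Col20a1 and Col6a2 in 10, and Col1a1, Col9a3 and Col22a1 in 8. Signal near background limited 10 members.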
